A study of Mus musculus with 12 samples.

Results

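The genes described here encode the subunits of the Polycomb repressive complexes, of the Polycomb repressive deubiquitinase (PR-DUB) and of the enzymes that remove methyl groups from lysine 27 of histone H3 (H3K27), in cultured mouse hippocampal neurons with and without knockdown of the long noncoding RNA *Neuid*. They were chosen by symbol from a list of 40 names, and all 40 were found among the 55471 gene columns of the count table. *Neuid* KD libraries came from neurons that received gapmers against *Neuid*, and control libraries from neurons that received negative control gapmers without a known target. A gapmer is a short antisense oligonucleotide that lets RNase H cut the RNA it pairs with. Both arms used wild-type (WT) primary hippocampal neurons from CD1 mouse embryos at E17 of mixed-sex litters, and the gapmers, 1 sequence per arm, were delivered in lipid nanoparticles on day 7 in vitro (DIV 7), with RNA taken at DIV 10. The sample names in the count table hold the word "Late", which the labels do not explain, and the day of collection is given as the labels state it. There were 6 libraries per group. The labels do not say whether the libraries of a group came from separate cultures, so the p-values measure the spread between these libraries, which may be technical.

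Polycomb repressive complex 2 (PRC2) methylates H3K27 through Ezh1 or Ezh2, which need Eed and Suz12 to be active, and H3K27me3 marks genes that are kept silent. Polycomb repressive complex 1 (PRC1) attaches ubiquitin to histone H2A through Ring1 or Rnf2. Canonical PRC1 carries a Cbx protein that reads H3K27me3, and variant PRC1 carries Rybp or Yaf2 in its place. PR-DUB, made of Bap1 and an Asxl protein, removes the ubiquitin, and Kdm6a and Kdm6b remove the methyl groups. In neurons these systems are known for holding genes of other lineages silent. In dividing cells Ezh2 is usually the main enzyme, while Ezh1 is typical of cells that have left the cell cycle.

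The knockdown was seen in every library. *Neuid* (Gm10419, ENSMUSG00000072769, mm10 chromosome 5 from 108367769 to 108378239) ranged from 26.0 to 31.0 CPM over the control libraries and from 6.32 to 9.55 CPM over the *Neuid* KD libraries, where CPM (counts scaled to a common library size) rest on TMM normalization. Its mean was 28.4 ± 2.03 CPM in control and 8.05 ± 1.13 in *Neuid* KD (SD, n = 6 per group), and the groups did not overlap (exact permutation test, two-sided, p = 0.002165, which is the lowest that 6 against 6 libraries allow). Of the subunit genes, Mtf2 ends 259 kb before *Neuid* on the same chromosome, and Pcgf3 starts 83 kb after it.

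Libraries held between 11152556 reads (*Neuid* KD replicate 1) and 30914714 reads (control replicate 3). A subunit gene had at least 35 and at most 7934 reads in a library. Libraries differed in reads on 2014 chemosensory receptor genes, known for their use in sensory organs and taken as a measure of background. These genes summed to 667, 420, 26.7, 592, 28.7 and 183 CPM in control replicates 1 to 6 and to 617, 72.3, 27.1, 50.5, 290 and 333 CPM in *Neuid* KD replicates 1 to 6. High background, here 100 CPM or more, was found in 7 libraries (4 control, 3 *Neuid* KD), and low background in 5 (2 control, 3 *Neuid* KD). *Neuid* KD replicate 1 stood apart from its group: it was the shallowest library, it had the highest background of the 6, and it had the lowest CPM of the 6 for 24 of the 40 genes, against at most 9 of 40 for any other *Neuid* KD library. Without it, the *Neuid* KD mean moved to the other side of the control mean for 7 of the 40 genes (Phf19, Pcgf2, Pcgf3, Cbx6, Phc1, Bcor and Bcorl1), and the log2 fold change of a new fit changed sign for 3 (Phf19, Rybp and L3mbtl2).

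No subunit gene passed the test. These are bulk libraries, in which fewer cells of a type and less RNA per cell cannot be told apart. All 40 passed the filter on low counts, and edgeR's quasi-likelihood test with Benjamini-Hochberg adjustment over 19578 genes called 0 of them higher and 0 lower at an adjusted p under 0.05. Of all tested genes, 6.31% were called higher and 2.42% lower. The lowest adjusted p-values among the members were 0.0757 for Auts2 and 0.0916 for Eed. At an unadjusted p under 0.05, edgeR gave 12 of the 40 (30.0%), of which 8 had higher and 4 lower means in *Neuid* KD, while 18.8% of all tested genes were under that p. DESeq2 also called 0 of the 40, and gave 6 at an unadjusted p under 0.05. Over all genes DESeq2 called 1203 higher and 588 lower of 48418 with a p-value. That number keeps genes which DESeq2's own filter may leave without an adjusted p, so it is not like edgeR's 19578. The 12 genes became 7 with RLE size factors (3 higher, 4 lower), 11 with upper-quartile scaling (2 higher, 9 lower), 8 with thinned reads (3 higher, 5 lower) and 3 without a low-count filter. They became 2 within the libraries of high background, 7 within those of low background, and between 5 and 10 with 1 library left out, with 5 to 7 without control replicate 1, 2 or 4 or *Neuid* KD replicate 2, 4, 5 or 6. There were 13 (9 higher, 4 lower) with RUVs, a correction for unwanted variation, and 13 (9 higher, 4 lower) with background as a covariate. A replicate block and a filter of 1 CPM in 6 libraries each gave 12 (8 higher, 4 lower). The share of all tested genes under that p is given for the main edgeR fit only. In none of the 40 genes were the 6 control and the 6 *Neuid* KD libraries fully apart, which was so in 5.7% of all tested genes.

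The differences were small in both directions. The log2 fold change was positive for 22 genes and negative for 18, with a median of 0.02 against -0.03 over all tested genes, and it lay between -0.34 (Pcgf5) and 0.24 (Auts2). With upper-quartile scaling in place of TMM, 13 were positive and 27 negative, and the calls over all genes turned from 1235 higher and 473 lower to 1049 higher and 1259 lower. The 95% interval of the log2 fold change lay within ±0.5 for 37 genes and within ±0.3 for 29. The 3 genes whose interval reached 0.5 were Phf19, Pcgf5 and Cbx7, all of them low in these cells. The subunit genes were measured more closely than most genes: the median standard error of the log2 fold change was 0.0650, against 0.114 over all tested genes, and the median coefficient of variation among control libraries was 7.75%, against 13.3%.

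**Figure D1:**
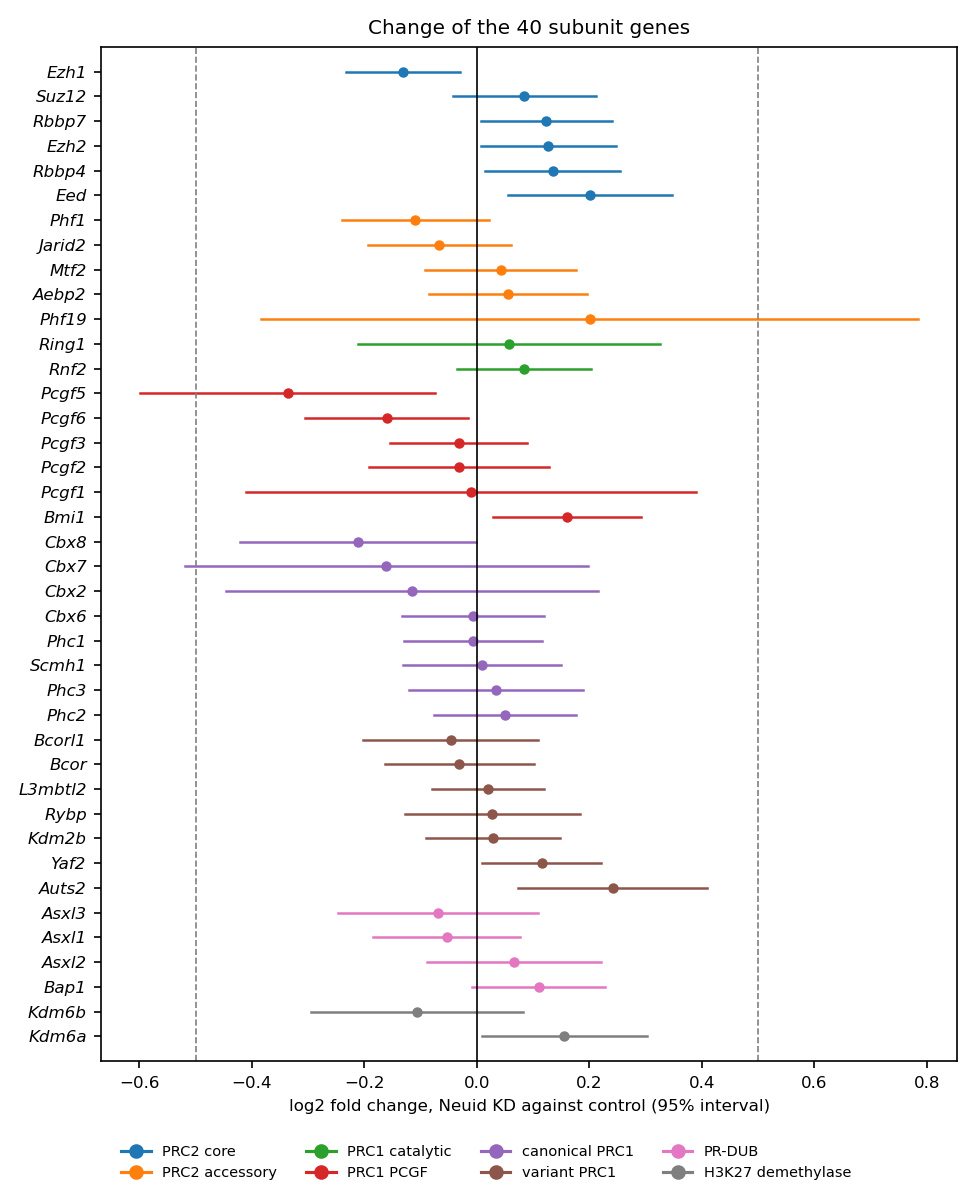
Log2 fold change of each of the 40 subunit genes, *Neuid* KD against control (horizontal axis, edgeR, n = 6 per group), grouped and coloured by role, with the 95% interval as a line; dashed lines mark -0.5 and 0.5. The estimates lie between -0.34 and 0.24, and 37 of the 40 intervals stay between the dashed lines.

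The 2 methyltransferase genes of PRC2 are paralogs, and their promoters are shown as those of the catalytic pair, whose log2 fold changes had opposite signs although neither passed the test. Sequences run 5′ to 3′ along the gene's own strand, from 250 bases before to 50 after the annotated start, taken from RefSeq on GRCm38.p6, with every CG in capitals. The window of Ezh1 lies on the minus strand at chr11:101226414-101226713 and holds 23 CG, and that of Ezh2 lies on the minus strand at chr6:47594981-47595280 and holds 31 CG.
Ezh1: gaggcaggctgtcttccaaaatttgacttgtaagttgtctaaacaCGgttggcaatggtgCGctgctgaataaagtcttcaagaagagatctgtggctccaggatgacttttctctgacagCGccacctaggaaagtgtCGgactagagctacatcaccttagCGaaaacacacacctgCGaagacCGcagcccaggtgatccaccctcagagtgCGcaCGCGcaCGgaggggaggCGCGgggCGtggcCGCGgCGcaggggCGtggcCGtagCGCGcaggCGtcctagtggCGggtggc
Ezh2: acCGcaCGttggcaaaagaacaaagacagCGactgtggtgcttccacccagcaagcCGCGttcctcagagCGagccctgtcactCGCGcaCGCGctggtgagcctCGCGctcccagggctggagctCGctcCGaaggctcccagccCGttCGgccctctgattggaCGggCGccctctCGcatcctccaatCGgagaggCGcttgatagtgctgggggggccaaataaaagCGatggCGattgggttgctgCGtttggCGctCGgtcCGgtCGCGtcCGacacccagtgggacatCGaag
In the Ezh2 window the CG pairs run along the whole length, while in the Ezh1 window they crowd toward the start. A window was found for 33 of the 40 genes, 46 windows in all. Kdm2b and Bcor have windows that overlap almost fully, and these were counted separately. The median number of CG was 23 in the 46 windows and 7 in all 32851 windows, and 69.6% of the 46 held at least 20 CG, against 26.5% of all windows. The E2F letters TTCCCGC, searched on both strands, were in 5 of the 46 windows (10.9%, against 4.60% of all windows): one each of Phf19, Asxl1, Scmh1, Suz12 and Pcgf5. These letters hold a CG themselves, and a match describes the sequence only.

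Among the 6 PRC2 core genes, 5 had higher and 1 had lower means in *Neuid* KD, and none was called. An unadjusted p under 0.05, which 18.8% of all tested genes had, was found for 5 of the 6. It was found for 2 with RLE or upper-quartile scaling, for 1 without a low-count filter, for 1 within the libraries of high background, for 1 within those of low background, and for between 1 and 4 with 1 library left out. With RUVs or the background covariate it was again found for 5. The replicate block and a filter of 1 CPM in 6 libraries each gave 4, and DESeq2 and thinned reads each gave 3. The summed level of the core was 320 ± 20.1 CPM in control and 345 ± 11.6 in *Neuid* KD (SD, n = 6 per group). Ezh1, the methyltransferase subunit typical of resting cells (mm10 chromosome 11, 101191115 to 101226463), was the one with the lower mean. It measured 25.6, 23.9, 26.9, 26.1, 25.5 and 23.8 CPM in control replicates 1 to 6 and 22.5, 24.2, 22.5, 23.8, 22.7 and 22.9 CPM in *Neuid* KD replicates 1 to 6. Control replicates 2 and 6 lay among the *Neuid* KD values, and the other 4 control libraries were above all 6 of them. Its log2 fold change was -0.13, with a standard error (SE) of 0.0482 (edgeR adjusted p = 0.119), and it was -0.12 within the libraries of high background and -0.19 within those of low background. Ezh1 passed the test in 2 of 23 alternative fits, with upper-quartile scaling (-0.19, adjusted p = 0.0133) and with a filter of 1 CPM in 6 libraries (-0.15, adjusted p = 0.047).

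Ezh2, the methyltransferase subunit typical of dividing cells (mm10 chromosome 6, 47530139 to 47595341), measured 26.3, 28.0, 28.7, 28.1, 25.1 and 31.6 CPM in control replicates 1 to 6 and 30.8, 31.1, 28.3, 32.5, 30.6 and 29.9 CPM in *Neuid* KD replicates 1 to 6. The groups overlapped, with control replicate 6 above all but 1 *Neuid* KD library. This gave a log2 fold change of 0.13 (SE 0.0567; adjusted p = 0.228), with 0.10 at high and 0.15 at low background. Eed, which binds H3K27me3 and stimulates the enzyme, measured 13.1, 12.7, 15.1, 11.5, 14.6 and 14.1 CPM in control replicates 1 to 6 and 15.0, 16.3, 14.9, 15.4, 16.8 and 15.0 CPM in *Neuid* KD replicates 1 to 6. Only control replicate 3 reached the *Neuid* KD range. For Eed the log2 fold change came to 0.20 (SE 0.0692, adjusted p = 0.0916). It was 0.29 within the libraries of high background and 0.03 within those of low background, and whether such values differ between the 2 sets was not tested for any gene.

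Suz12, the scaffold of the complex, measured 33.4, 37.3, 40.1, 35.0, 34.4 and 35.8 CPM in control replicates 1 to 6 and 34.0, 42.6, 37.7, 40.2, 35.7 and 38.5 CPM in *Neuid* KD replicates 1 to 6. The groups overlapped over most of their range, and the log2 fold change was 0.08 (95% interval -0.04 to 0.21, adjusted p = 0.553). The histone chaperones Rbbp4 and Rbbp7, which PRC2 shares with other chromatin complexes, had log2 fold changes of 0.13 (adjusted p = 0.190) and 0.12 (adjusted p = 0.228). Both were smaller at low background, at 0.05 and 0.01, than at high background, at 0.17 and 0.16. Rbbp4 was at 78.0 ± 6.43 CPM in control and 85.6 ± 3.66 in *Neuid* KD, and Rbbp7 at 139 ± 10.9 and 152 ± 6.35 CPM (SD, n = 6 per group).

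**Figure D2:**
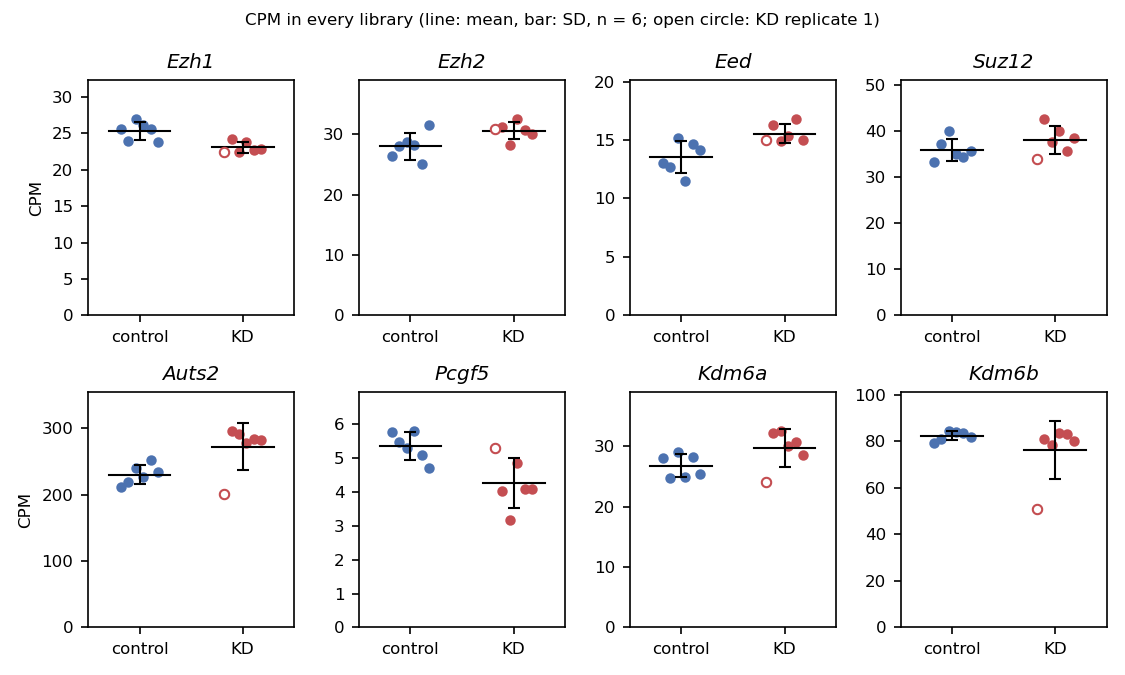
CPM (vertical axes, from 0) of Ezh1, Ezh2, Eed, Suz12, Auts2, Pcgf5, Kdm6a and Kdm6b in each of the 12 libraries; points are libraries, horizontal lines are group means, bars are SD (n = 6), and the open circle is *Neuid* KD replicate 1. That replicate lies at 201 CPM for Auts2 and at 50.9 CPM for Kdm6b, away from the other 5 *Neuid* KD libraries, and every pair of groups overlaps.

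The PRC2 accessory genes showed no member with an unadjusted p under 0.05, and their summed level was 141 ± 5.71 CPM in control and 140 ± 7.77 in *Neuid* KD (SD, n = 6 per group). Jarid2 and Aebp2, which define one form of PRC2, were at 63.3 ± 4.88 and 34.3 ± 1.72 CPM in control and at 60.4 ± 4.12 and 35.5 ± 3.96 CPM in *Neuid* KD. The other form carries one of 3 Polycomb-like proteins. Mtf2, the Polycomb-like gene nearest to *Neuid*, was between 24.4 and 30.2 CPM in control (median 26.9) and between 26.1 and 32.1 CPM in *Neuid* KD (median 27.3), with a log2 fold change of 0.04 (95% interval -0.09 to 0.18) whose sign turned in some alternative fits. Phf1 was at 14.0 ± 0.730 and 12.9 ± 0.952 CPM, and Phf19 at 2.77 ± 1.09 and 3.23 ± 1.27 CPM, or 2.75 ± 0.510 CPM in *Neuid* KD without replicate 1 (n = 5). Phf19 had a mean of 3.46 CPM in the 7 libraries of high background and 2.36 CPM in the 5 of low background.

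PRC1 in these cultures carried more Rnf2 than Ring1 message, and neither ubiquitin ligase gene differed between the groups beyond its error. Rnf2 was at 41.7 ± 3.17 CPM in control and 44.1 ± 2.42 in *Neuid* KD (log2 fold change 0.08, 95% interval -0.03 to 0.20), and Ring1 at 5.90 ± 1.16 and 6.16 ± 0.631 CPM (SD, n = 6 per group). The 6 PCGF proteins pair with the ligase and decide which PRC1 is formed. Their genes had a summed level of 212 ± 12.5 CPM in control and 210 ± 10.8 in *Neuid* KD. Of their means 1 was higher and 5 were lower in *Neuid* KD, against 3 higher and 3 lower without replicate 1, where Pcgf2 was at 16.0 and Pcgf3 at 133 CPM, as in control. The log2 fold changes of a new fit without that library were positive for 1 and negative for 5, as with all 12 libraries.

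Bmi1 (Pcgf4), the subunit of canonical PRC1 known for stem cell renewal, was between 30.0 and 41.5 CPM in control (median 38.2) and between 40.5 and 42.3 CPM in *Neuid* KD. Control replicate 1 was the lowest library, and all 6 *Neuid* KD libraries were above the control median. The log2 fold change of Bmi1 was 0.16 (adjusted p = 0.143), with 0.23 at high and 0.02 at low background. Pcgf5, which belongs to variant PRC1, was between 4.70 and 5.80 CPM in control (median 5.39) and between 3.18 and 5.30 CPM in *Neuid* KD (median 4.09). Its log2 fold change was -0.34 (SE 0.124, adjusted p = 0.12), with -0.28 at high and -0.39 at low background. *Neuid* KD replicate 1 was the highest of its group for Pcgf5, and without that library the gene passed the test (-0.44, adjusted p = 0.0300), as it did with reads thinned to the smallest library (-0.54, adjusted p = 0.0176).

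Pcgf6, of a variant PRC1 with E2f6 and L3mbtl2, was at 17.8 ± 1.79 CPM in control and 15.9 ± 0.926 in *Neuid* KD, with a log2 fold change of -0.16 (adjusted p = 0.199). Pcgf3, the PCGF gene with the most reads and the member that lies nearest to *Neuid*, was at 133 ± 7.99 and 130 ± 9.70 CPM, with a log2 fold change of -0.03 (95% interval -0.15 to 0.09). Pcgf1 was at 3.10 ± 0.582 and 3.09 ± 0.720 CPM, and Pcgf2 at 16.0 ± 1.76 and 15.6 ± 1.27 CPM (SD, n = 6 per group).

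The 8 genes of canonical PRC1 summed to 430 ± 19.4 CPM in control and 430 ± 32.2 in *Neuid* KD, or 443 ± 8.49 in *Neuid* KD without replicate 1 (n = 5). The Cbx proteins read H3K27me3, and of their genes only Cbx8 had an unadjusted p under 0.05. Cbx8 was between 7.42 and 12.4 CPM in control (median 10.0) and between 7.80 and 9.19 CPM in *Neuid* KD (median 8.69), with a log2 fold change of -0.21 (adjusted p = 0.261). It was -0.06 at high background and -0.45 at low background, where Cbx8 passed the test with 2 control and 3 *Neuid* KD libraries (adjusted p = 0.0341). Cbx6 was at 184 ± 12.6 and 183 ± 13.5 CPM, while Cbx2 and Cbx7 stayed under 6 CPM in every library. The polyhomeotic genes, whose proteins polymerize and cluster PRC1, differed little between the groups: the 95% interval of the log2 fold change was -0.13 to 0.12 for Phc1, -0.08 to 0.18 for Phc2 and -0.12 to 0.19 for Phc3. That of Scmh1, another partner of canonical PRC1, was -0.13 to 0.15.

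The 7 genes of variant PRC1 summed to 530 ± 26.6 CPM in control and 578 ± 51.5 in *Neuid* KD (SD, n = 6 per group), and most of that difference was Auts2. Auts2 is a subunit of PRC1 with Pcgf3 or Pcgf5, is linked to gene activation in the nervous system, and is a gene of neurodevelopmental disorders. It was between 211 and 252 CPM in control (median 231) and between 201 and 296 CPM in *Neuid* KD (median 283). *Neuid* KD replicate 1, at 201 CPM, was below every control library, and the other 5, from 277 to 296 CPM, were above every control library. Over all libraries the log2 fold change was 0.24 (SE 0.0795, adjusted p = 0.0757).

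Without *Neuid* KD replicate 1, Auts2 was at 286 ± 7.42 CPM (SD, n = 5), and it passed edgeR's test with a log2 fold change of 0.27 (adjusted p = 0.0004). That fit called 6.11% of its tested genes higher and 3.94% lower, and among the subunit genes it called Auts2 and Pcgf5. Auts2 was then the 1 subunit gene whose groups did not overlap, where 8.71% of all tested genes did not. Its log2 fold change was 0.21 at high and 0.20 at low background, and it was called in 7 of the 23 alternative fits.

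Yaf2 and Rybp, which take the place of the Cbx protein and stimulate the ligase, were at 72.7 ± 3.59 and 20.6 ± 1.73 CPM in control and at 78.7 ± 4.37 and 20.9 ± 2.18 CPM in *Neuid* KD. The log2 fold change of Yaf2 was 0.12 (adjusted p = 0.214), with 4 of 6 *Neuid* KD libraries above every control library. A processed copy, Rybp-ps, is annotated for Rybp, so reads of Rybp could be split with it. Kdm2b, which brings variant PRC1 to unmethylated CG-rich promoters, was at 86.7 ± 2.41 and 88.4 ± 7.84 CPM, and its partners Bcor and Bcorl1 were at 36.5 ± 3.15 and 45.7 ± 3.17 CPM in control, at 35.6 ± 2.57 and 44.1 ± 5.45 CPM in *Neuid* KD, and at 36.6 ± 0.959 and 45.8 ± 3.94 CPM there without replicate 1. L3mbtl2 was at 37.2 ± 1.16 and 37.7 ± 2.11 CPM (SD, n = 6 per group for each).

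The 4 PR-DUB genes summed to 220 ± 9.27 CPM in control and 225 ± 15.8 in *Neuid* KD, and none had an unadjusted p under 0.05. Bap1, the deubiquitinase, was at 90.5 ± 7.06 and 97.6 ± 4.66 CPM (log2 fold change 0.11, 95% interval -0.01 to 0.23). Its cofactors Asxl1, Asxl2 and Asxl3 were at 57.6 ± 3.89, 42.1 ± 3.44 and 29.6 ± 2.31 CPM in control and at 55.4 ± 4.81, 43.9 ± 4.93 and 28.0 ± 4.02 CPM in *Neuid* KD (SD, n = 6 per group). Without *Neuid* KD replicate 1 they were at 57.0 ± 3.09, 45.6 ± 3.02 and 29.6 ± 0.901 CPM (n = 5), so that Asxl3 was level with control.

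Neither demethylase gene passed the test, and their log2 fold changes had opposite signs. Kdm6a, an X-linked demethylase that also sits in COMPASS complexes, measured 28.0, 24.8, 29.2, 25.0, 28.3 and 25.5 CPM in control replicates 1 to 6 and 24.1, 32.3, 32.5, 30.0, 30.7 and 28.6 CPM in *Neuid* KD replicates 1 to 6. Replicate 1 was the lowest of all 12 libraries, and 4 of the other 5 were above every control library. Kdm6a had a log2 fold change of 0.16 ± 0.0692 (SE, adjusted p = 0.226), with 0.13 at high and 0.11 at low background.

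Kdm6b, an inducible demethylase of differentiation and activity responses, measured 79.3, 81.2, 84.3, 84.1, 83.4 and 81.8 CPM in control replicates 1 to 6 and 50.9, 81.1, 78.3, 83.4, 83.2 and 80.2 CPM in *Neuid* KD replicates 1 to 6. Apart from replicate 1 the *Neuid* KD libraries lay within 1 CPM of the control range. The log2 fold change of Kdm6b was -0.11 (SE 0.0890, adjusted p = 0.648), and -0.06 without replicate 1.

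**Figure D3:**
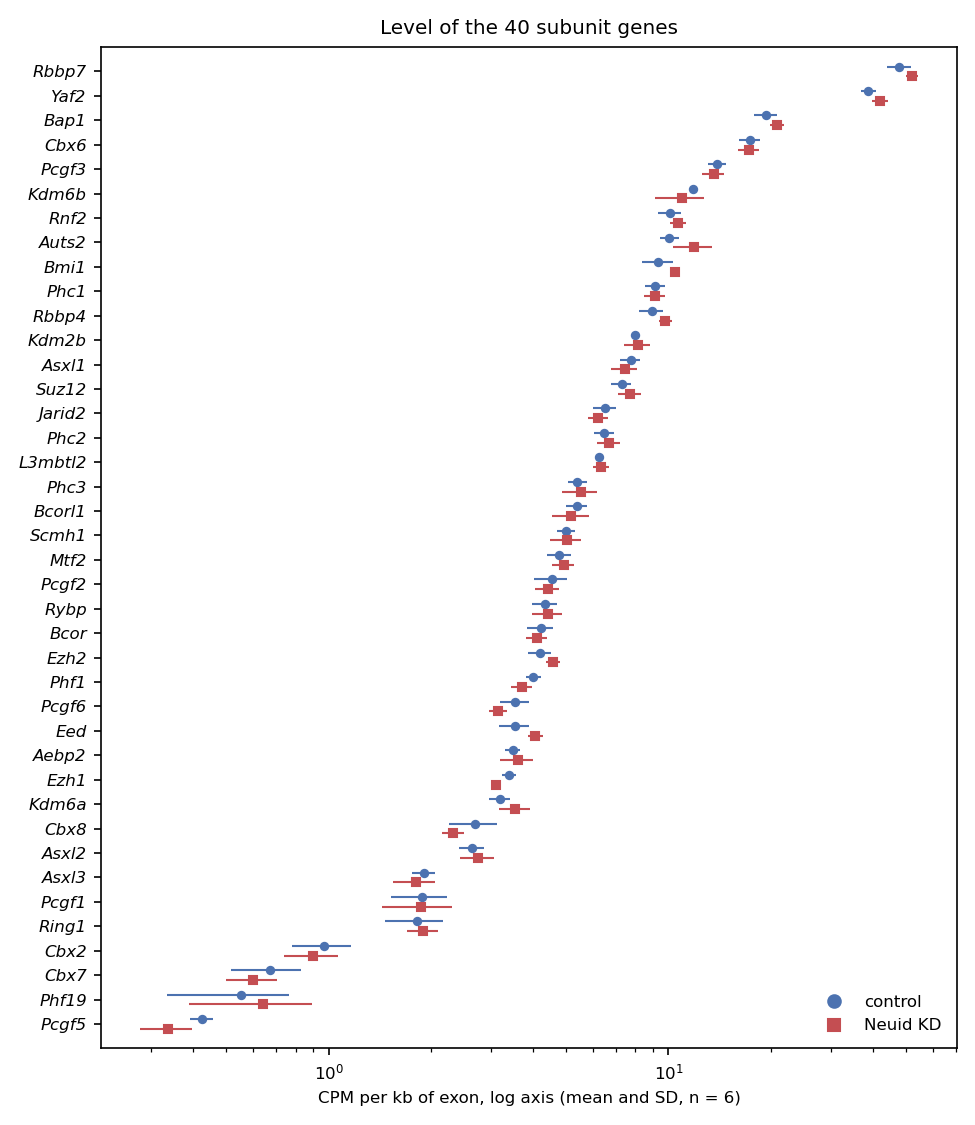
Level of the 40 subunit genes in CPM per kb of exon (horizontal log axis), as mean and SD of 6 control (circles) and 6 *Neuid* KD libraries (squares), ordered by the control mean. Control means run from 47.9 for Rbbp7 to 0.424 for Pcgf5, and the 2 groups lie close together along the whole order.

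Set side by side per length, the subunits were present at very different levels. In control libraries, in CPM per kb of exon (union of all annotated exons), Rbbp7 was at 47.9 ± 3.76 and Yaf2 at 38.8 ± 1.92, followed by Bap1 at 19.3 ± 1.51, Cbx6 at 17.4 ± 1.19, Pcgf3 at 13.9 ± 0.837 and Kdm6b at 11.8 ± 0.280. Each of these 6 was apart from the next in order by more than the sum of their SDs, except Bap1 from Cbx6. From Rnf2 (10.1 ± 0.769) down to L3mbtl2 (6.26 ± 0.196), and from Phc3 (5.40 ± 0.348) down to Asxl2 (2.64 ± 0.216), no gene was apart from its neighbour by more than that sum. Ezh2 (4.19 ± 0.332), Eed (3.53 ± 0.357) and Ezh1 (3.40 ± 0.166) lay in this second stretch, under Suz12 at 7.28 ± 0.484. The lowest levels were those of Cbx2, Cbx7, Phf19 and Pcgf5, from 0.972 ± 0.190 to 0.424 ± 0.0335. Reads were counted on whole genes, so annotated transcripts that are not used lower these values.

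**Figure D4:**
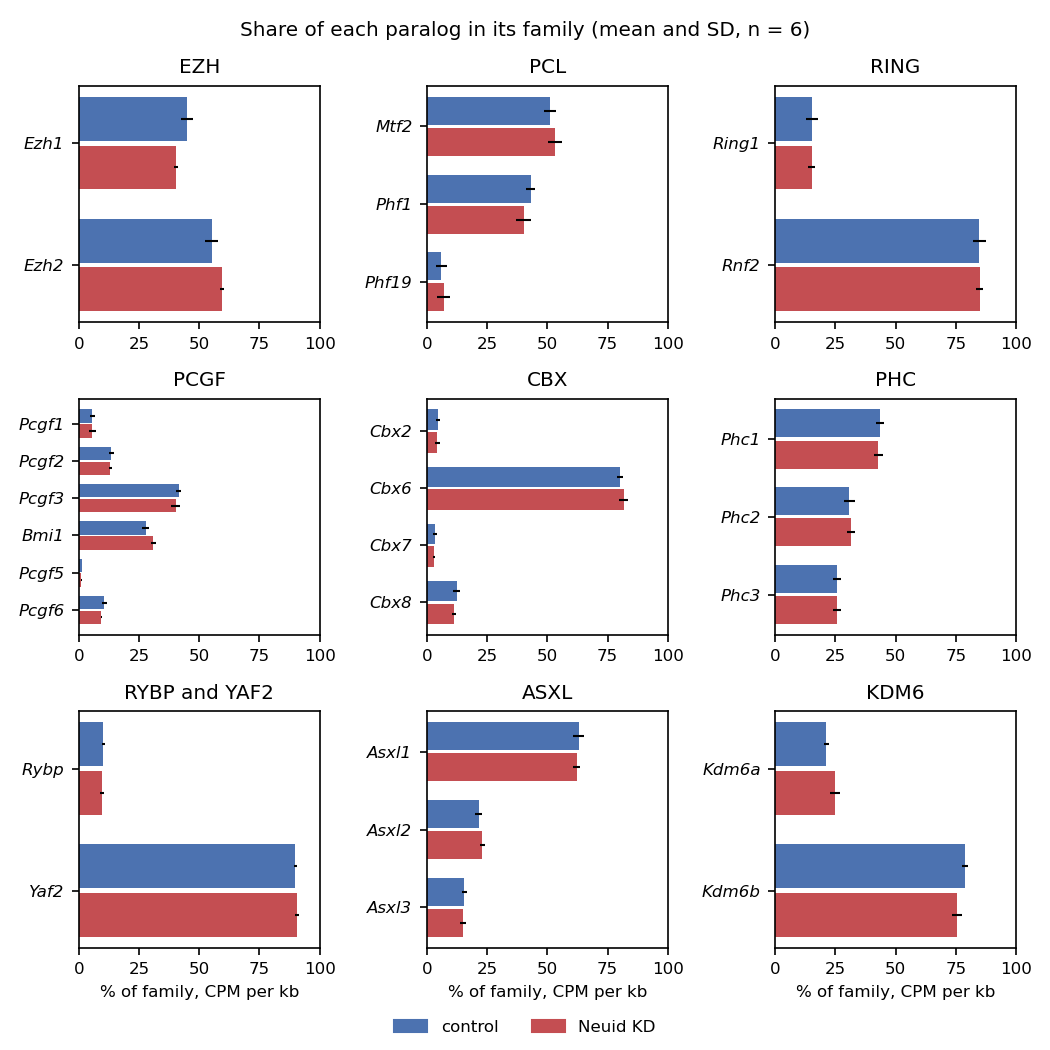
Share of each paralog in its family, computed from CPM per kb of exon and given in percent (horizontal axes, 0 to 100), as mean and SD of 6 libraries per group. Rnf2, Cbx6, Yaf2 and Kdm6b hold over 75% of their families in both groups, while Ezh2 holds 55.1% in control and 59.6% in *Neuid* KD.

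Each family had its leading paralog, and the order within a family was the same in both groups for the means. Ezh2 made up 55.1% ± 2.64 of EZH message in control and 59.6% ± 0.825 in *Neuid* KD (SD, n = 6 per group), a difference of 4.44 percentage points. The *Neuid* KD libraries lay closely together, from 58.4% to 60.4%, and 5 control libraries lay below them, from 52.2% to 56.6%, with control replicate 6 among them at 59.7%. The difference was 3.89 points at high and 5.90 points at low background, and between 3.86 and 5.34 points with single libraries left out. No test was run on shares, since the members were chosen with results of these data known.

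In the other families, Bmi1 held 27.7% ± 1.58 of PCGF message in control and 30.9% ± 1.01 in *Neuid* KD, with ranges of 25.0% to 29.5% and 29.9% to 32.6% that did not overlap. At low background, control replicates 3 and 5 were at 27.3% and 28.8%, and *Neuid* KD replicates 2, 3 and 4 at 30.0%, 29.9% and 30.3%. At high background, control replicates 1, 2, 4 and 6 were at 25.0%, 29.5%, 27.1% and 28.3%, and *Neuid* KD replicates 1, 5 and 6 at 32.6%, 31.2% and 31.2%. Kdm6a held 21.2% ± 1.21 and 24.7% ± 2.05 of KDM6 message, with ranges of 19.8% to 22.7% and 22.8% to 28.2% that met without overlapping. The highest of these was *Neuid* KD replicate 1, where Kdm6b was low. How often shares of other gene families lie apart in these libraries was not examined. Phf1 held 43.0% ± 2.00 of Polycomb-like message in control and 40.1% ± 3.25 in *Neuid* KD, with overlapping ranges of 40.5% to 45.5% and 35.3% to 42.5%. The shares of Rnf2 (84.8% and 84.9%), Cbx6 (80.0% and 81.8%), Pcgf3 (41.4% and 40.2%), Yaf2 (89.9% and 90.5%) and Asxl1 (63.0% and 62.1%) were within 2 percentage points of each other.

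**Figure D5:**
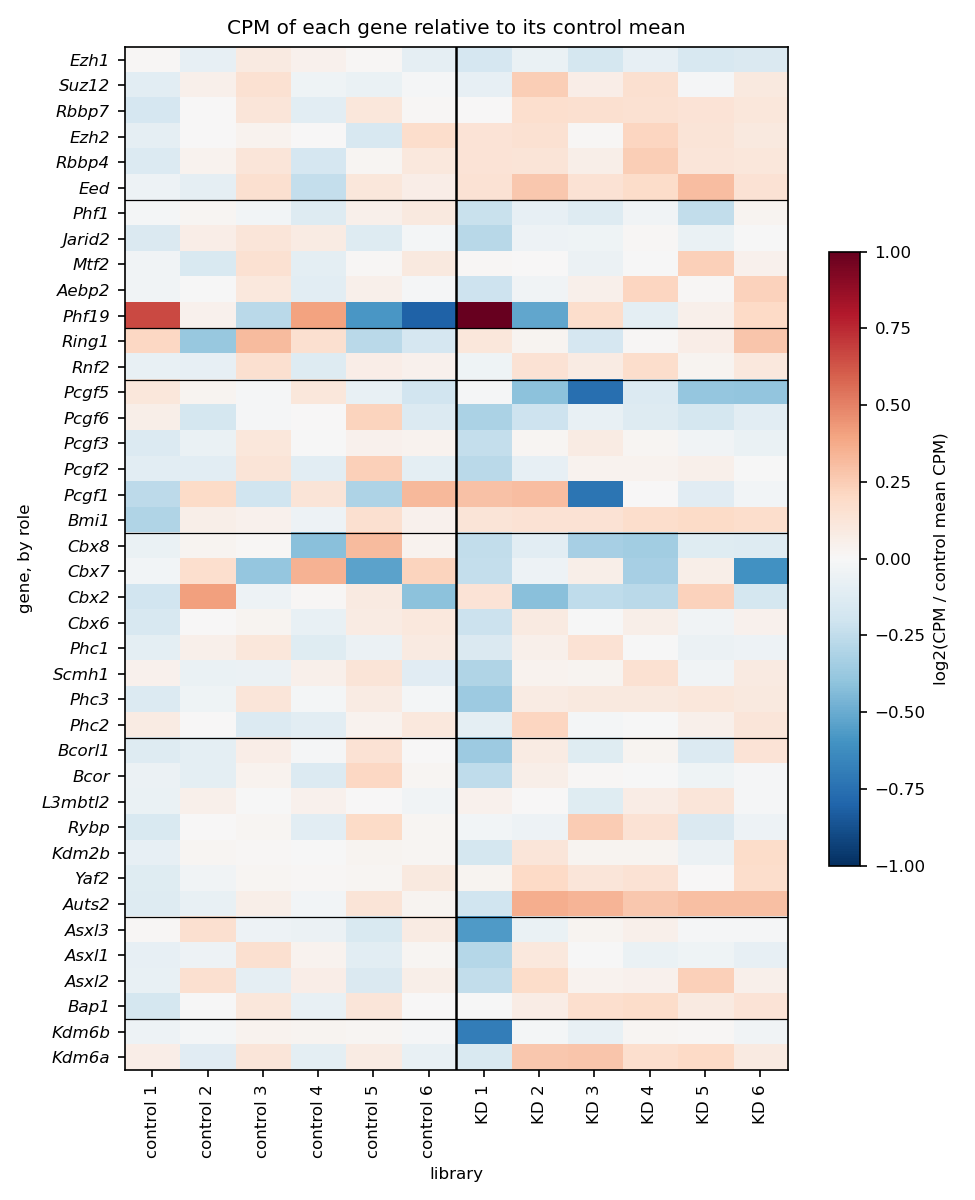
CPM of each of the 40 subunit genes (rows, grouped by role) in each library (columns) relative to the gene's control mean as a log2 ratio (colour; red higher, blue lower). *Neuid* KD replicate 1 is the lowest of its group in 24 rows, and the rows of Phf19, Pcgf1, Cbx7 and Cbx2, which have few reads, vary widely within both groups.

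The 40 genes summed to 2010 ± 87.9 CPM in control and 2083 ± 141 in *Neuid* KD (SD, n = 6 per group), with overlapping groups, or to 2140 ± 30.8 CPM in *Neuid* KD without replicate 1 (n = 5), which had the lowest sum of all, 1802 CPM. The 7 libraries of high background averaged 1986 ± 121 CPM, or 2017 ± 97.3 CPM without that library (n = 6), and the 5 of low background 2131 ± 37.5 CPM. The 5 libraries of low background were between 2087 and 2179 CPM. Of the libraries of high background, control replicates 1, 2, 4 and 6 were at 1873, 1988, 1957 and 2050 CPM and *Neuid* KD replicates 1, 5 and 6 at 1802, 2098 and 2137 CPM, so the last 2 lay within the range at low background. These differences were not tested. Background reads and the gapmer could be told apart only in part, since 3 of 6 *Neuid* KD but 2 of 6 control libraries had low background.

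Of 33 partner genes, which work with these complexes, 32 were tested, and 1 rose and 2 fell at an adjusted p under 0.05. These 3 are 9.38% of the 32, where 6.31% of all tested genes were called higher and 2.42% lower. E2f6, a repressive E2F factor that brings the Pcgf6 form of PRC1 to DNA, rose from 12.8 ± 1.35 to 16.9 ± 2.40 CPM (log2 fold change 0.41, edgeR adjusted p = 0.0083), without overlap of the groups. Sfmbt2, an MBT-domain protein of Polycomb-related complexes, fell from 10.5 ± 1.02 to 8.22 ± 0.738 CPM (-0.36, adjusted p = 0.0086), also without overlap. Epop, an accessory protein of PRC2, fell from 12.7 ± 1.45 to 10.2 ± 1.18 CPM (-0.33, adjusted p = 0.0279). The median log2 fold change of the partners was 0.02, and their most abundant gene, Skp1a, was at 276 CPM in control and 289 in *Neuid* KD.

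Of the trithorax and COMPASS genes, a list of histone H3 methyltransferases, their partners and the acetyltransferases Crebbp and Ep300, 22 were tested, and 0 passed edgeR's or DESeq2's test, with 2 at an unadjusted p under 0.05. Their median log2 fold change was 0.00, and their most abundant gene over all 12 libraries, Psip1, was at 367 CPM in control, under Nsd1 at 369.6, and at 384 CPM in *Neuid* KD. Of 26 BAF remodelling genes, whose products move nucleosomes and evict Polycomb, 4 rose and 0 fell. These 4 are 15.4% of the 26, where 6.31% of all tested genes were called higher and 2.42% lower. The 2 with the largest log2 fold changes were Dpf3 (0.41, from 24.9 ± 1.46 to 33.0 ± 3.68 CPM) and Actl6a (0.30, from 9.41 ± 0.605 to 11.6 ± 0.852 CPM), and the most abundant over all 12 libraries was the ATPase Smarca4 (0.24, from 357 ± 20.5 to 421 ± 35.2 CPM), which in control lay under Smarcc2 at 361 CPM. The 16 genes of cycling cells held 0 called genes by edgeR and by DESeq2 and 3 at an unadjusted p under 0.05, with a summed level of 269 ± 7.61 CPM in control and 265 ± 18.5 in *Neuid* KD, and Mki67 as the most abundant, at 75.3 and 71.3 CPM.

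The called cell type markers were mostly those of astrocytes and oligodendrocyte precursors. The labels give the cells as hippocampal neurons, and the 13 neuronal markers summed to 8095 ± 485 CPM in control and 8195 ± 490 in *Neuid* KD, with Map2 as the most abundant (2625 and 2607 CPM), Nefm called higher (0.21) and Elavl4 called lower (-0.21). Astrocyte markers were also present in control cultures and rose in *Neuid* KD: of 12 markers 11 were tested, and all 11 rose. Their sum was 1733, 2058, 2180, 1952, 2114 and 1955 CPM in control replicates 1 to 6 and 3201, 3735, 3886, 3800, 3516 and 3721 CPM in *Neuid* KD replicates 1 to 6. The largest log2 fold changes were those of S100b (2.64) and Gja1 (2.27), and the most abundant marker was Slc1a2, at 1185 and 1834 CPM. The untested Gjb6 was at 0.0894 and 0.401 CPM.

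Of 8 markers of oligodendrocyte precursors, 4 rose, led by Olig2 (1.67) and Olig1 (1.47), while Pdgfra, Cspg4, Sox10 and Gpr17 did not pass the test. Their sum was between 277 and 326 CPM in control and between 522 and 571 CPM in *Neuid* KD, and Cspg5 was the most abundant, at 160 and 227 CPM. Of 4 tested oligodendrocyte markers, Mbp fell (-0.66) and Cnp was the most abundant (14.1 and 15.3 CPM). Of the markers of microglia (4 tested), endothelium (5 tested, led by Kdr at 7.40 and 7.36 CPM) and fibroblasts or mural cells (9 tested, led by Dcn at 21.6 and 20.9 CPM), 0 passed edgeR's or DESeq2's test, and 0 had an unadjusted p under 0.05. The summed astrocyte and precursor markers were higher in every *Neuid* KD library than in every control library, while the sums of the subunit genes overlapped between the groups. Taken singly, every subunit gene overlapped, as did Pdgfra, Cspg4, Sox10, Gpr17, Vcan and the untested Gjb6. The other markers of astrocytes and precursors did not overlap. The part of astrocytes and precursors in the levels of the subunit genes was not tested.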

How the data were processed

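Libraries were made with a stranded total RNA kit for low input (SMARTer). Per the labels and the methods of the study, the authors used bcl2fastq, aligned with STAR to mm10 (GRCm38) and counted with featureCounts. The deposited values are raw read counts per gene. The strand setting and the annotation release are not given in the sources used here. Of the 40 genes, 15 share exon bases with a gene on the opposite strand, and Cbx6 and Kdm2b with one on the same strand, so reads could be mixed there.

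Symbols, exon lengths and positions came from GENCODE on GRCm38 (55230 of 55471 columns matched). edgeR 4.0.16 (filterByExpr, TMM, quasi-likelihood test, group as the only term) was run on all 12 libraries, after a test on simulated data. No 2 libraries of a group agreed within sampling noise. Alternatives included DESeq2 1.42.0, other scalings, filters and covariates, a replicate block, thinned reads and left-out libraries.

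All 12 values are given for Ezh1, Ezh2, Eed, Suz12, Kdm6a and Kdm6b and any called member. From other lists, called partner, trithorax and COMPASS genes are named, and otherwise the 2 largest called changes and the most abundant gene. For 1 list the latter is not reported here. Other genes described at length (Auts2, Pcgf5, Bmi1, Cbx8) were singled out after their values were seen. Members, lists and the background measure were chosen with earlier results of these data known.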

Additional observations from a re-analysis of the deposited data

Results flagged for a closer look

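In 10 of the 82 groups of 6 libraries examined (each subunit gene and *Neuid* in both groups), 1 library stood apart from the other 5 by more than the 95% critical value of Dixon's test, where chance gives about 1 in 20. In 8 of the 10 that library was *Neuid* KD replicate 1. It was low for Auts2 (201 CPM, others 277 to 296), Kdm6b (50.9, others 78.3 to 83.4), Phc3 (73.5, others 100.1 to 102), Asxl3 (19.96, others 28.3 to 30.6), Jarid2 (52.4, others 60.3 to 63.8), Bcor (30.6, others 35.4 to 38.0) and Rbbp7 (139.5, others 150.4 to 157). It was high for Phf19 (5.64 CPM, others 1.94 to 3.19). The other 2 were Mtf2 in *Neuid* KD replicate 5 (32.1 CPM, others 26.1 to 28.0) and Kdm2b in control replicate 1 (82.0 CPM, others 86.6 to 88.4). *Neuid* KD replicate 1 had 11152556 reads and 617 CPM on chemosensory genes. Why it stands apart was not tested.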

How the results depend on the processing

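Of the 40 genes, 19 kept one sign of the log2 fold change in all 23 alternative fits and 21 did not. In 15 of the 23 fits no member was called. One member was called higher with 1 CPM in 6 libraries, RUVs, the replicate block, the background covariate, thinned reads and low-background libraries, each time Auts2. In the main edgeR fit, 2 members had an adjusted p under 0.1 (Auts2 and Eed). Of all tested genes, 1495 of 15086 were called higher with 1 CPM in 6 libraries, 1757 of 19578 with RUVs and 1299 of 19578 with the replicate block. The numbers were 1776 of 19578 with the background covariate, 1126 of 15564 with thinned reads and 1110 of 17665 at low background. One was called lower with 1 CPM in 6 libraries (Ezh1), thinned reads (Pcgf5) and low-background libraries (Cbx8), and 2 with upper-quartile scaling (Ezh1 and Pcgf6). In the same 4 fits 802 of 15086, 664 of 15564, 799 of 17665 and 1259 of 19578 tested genes were called lower. With each library left out in turn, between 0 and 1 were called higher and between 0 and 1 lower, all without *Neuid* KD replicate 1. The median log2 fold change of the members was -0.037 with upper-quartile scaling and -0.035 with thinned reads, against 0.024, and between -0.026 and 0.029 with libraries left out. Over all tested genes the median was -0.088 with upper-quartile scaling and -0.021 with thinned reads, against -0.027, and between -0.073 and -0.007 with libraries left out. The log2 fold change of Mtf2 turned to -0.017 with upper-quartile scaling, -0.033 with thinned reads and -0.14 at low background, and was between -0.034 and 0.080 with libraries left out. Called genes of the partner, trithorax and BAF lists numbered 7, against 3 without a low-count filter, 4 with thinned reads, 2 at high background, 4 at low background, and between 4 and 9 with libraries left out. The causes were not tested.

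Replicate numbers do not pair the samples: same-numbered control and *Neuid* KD libraries had deviations that correlated between -0.64 and 0.77, and 2 of 6 matched their own number best. The replicate block called 1 member, Auts2 (0.23, adjusted p = 0.0202), while it called 1299 higher and 542 lower of 19578 tested genes. It left the *Neuid* log2 fold change at -1.82, which was between -1.93 and -1.74 over all fits. The 95% interval was widest for a gene with few reads, Phf19 (-0.38 to 0.78).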
